A study of Mus musculus with 4 samples.

Results

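The cells described are CD4 T cells without NK1.1 from mouse liver, chosen by their measured UMIs (unique molecular identifiers, each counting 1 captured RNA molecule) in droplet single-cell RNA-seq. Among barcodes of 300 or more genes whose mitochondrial share of UMIs was 20% or less, a member held at least 3 UMIs of the CD3 genes Cd3d, Cd3e and Cd3g together, at least 1 of Cd4 and at most 2 of the proliferation genes Top2a and Mki67. Members also held none of Cd8a, Cd8b1, Klrb1c (which encodes NK1.1), Cd79a (B cells), Siglech (plasmacytoid dendritic cells) or Clec4f (Kupffer cells). In all, 417 of 19176 kept barcodes met the rule.

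There were 4 groups of 2-month-old mice. They were A/A at baseline, S/S at baseline, A/A after TNF and S/S after TNF, and runs of 4 values below keep that sequence. The labels give A/A and S/S as genotypes and do not spell out the letters. TNF-treated mice received 500 ng of TNF intraperitoneally and were sampled 3 h later. What the baseline mice received, if anything, is not stated. Each group was 1 library from the pooled liver cells of 2 mice, so no group had a replicate and no difference between groups could be tested. The livers had been perfused and digested, enriched for non-parenchymal cells, cleared of dead cells on Ficoll and sorted for live cells with enrichment of macrophages.

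CD4 T cells read peptides on MHC class II through the T cell receptor and steer other immune cells with cytokines. Naive cells recirculate through lymphoid tissue, guided by receptors such as CCR7, under factors such as TCF-1 (Tcf7), LEF1 and SATB1, whereas effector and tissue memory cells carry CXCR6, CXCR3 and chemokines such as CCL5. Regulatory T cells are defined by FOXP3. TNF binds TNFR1 and TNFR2, and the receptors free NF-kB from its inhibitor IkBa (Nfkbia), whose own gene is an NF-kB target.

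Members numbered 58, 197, 113 and 49. They made up 2.05% of kept barcodes in A/A baseline (95% exact binomial interval 1.56 to 2.64), 4.51% in S/S baseline (3.92 to 5.17), 1.75% in A/A TNF (1.45 to 2.10) and 0.886% in S/S TNF (0.656 to 1.17). At baseline the S/S share was the higher of the pair and after TNF the lower, with intervals that did not overlap in either case. Intervals here and below cover counting error only, not the spread between mice, and the sort that enriched macrophages acts on every share of kept barcodes. Among barcodes with at least 3 CD3 UMIs, members were 12.0% (9.21 to 15.2), 20.2% (17.7 to 22.8), 11.1% (9.20 to 13.1) and 16.1% (12.2 to 20.7). Here both S/S libraries lay above their A/A counterparts, and the intervals overlapped after TNF.

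**Figure D1:**
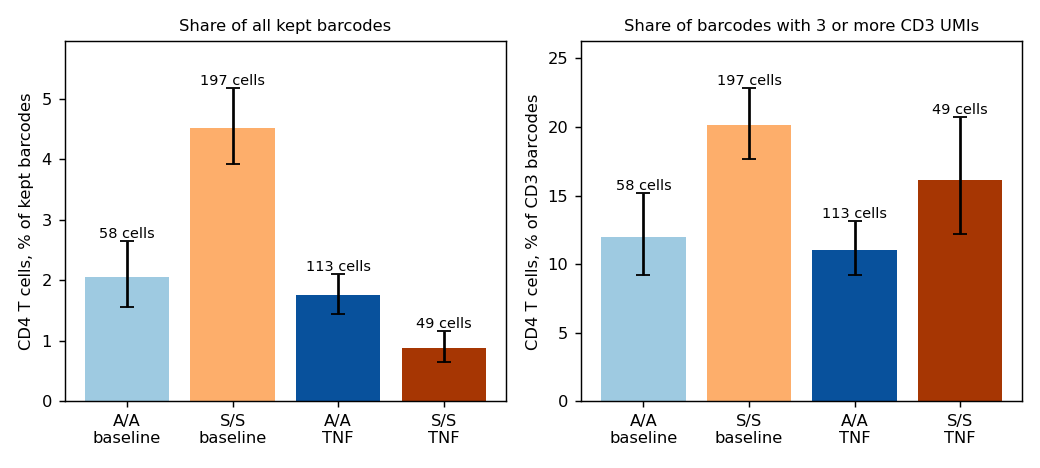
Members as a percentage of kept barcodes and of barcodes with at least 3 CD3 UMIs, by library, with exact binomial 95% intervals as bars. S/S baseline stands highest in both panels, at 4.51% and 20.2%, and S/S TNF is lowest among kept barcodes, at 0.886%, but not among CD3 barcodes.

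In both A/A libraries the step of the rule that removed the most Cd4-positive barcodes was the one on NK1.1. Barcodes with CD3, Cd4 and no CD8 gene numbered 173, 259, 295 and 68, and those without Klrb1c numbered 75, 237, 143 and 54. More than were kept were thus removed for NK1.1 in each A/A library, and fewer in each S/S library. NK1.1-positive T barcodes as a whole numbered 223, 163, 547 and 85, and CD8 T barcodes 62, 281, 129 and 84. At the edge of the rule, 3 barcodes (all S/S baseline) with 2 CD3 UMIs would otherwise have qualified, and 6 members (4 in S/S baseline, 2 in A/A TNF) had exactly 3. Members with exactly 1 Cd4 UMI numbered 16, 66, 47 and 21.

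The libraries held 21088801 to 54999906 UMIs. Median UMIs per member were 13200.5, 8227, 9842 and 9695, and the summed members of a library held 511599 to 1701032. The levels below are CPM, the UMIs of a gene in every 1000000 UMIs of a library's members. No member shared its barcode sequence with a member of another library, although 2 to 11 kept barcodes were shared between pairs of libraries. The baseline libraries came from Cell Ranger 7.1.0 and the TNF libraries from 6.1.2, and whether intron reads were counted is not stated. TNF and software version therefore cannot be told apart. Genes with over 100 kb of intron had median TNF log2 ratios of -1.61 for A/A and -1.64 for S/S, against 0.58 and 0.085 for genes with under 1 kb, so an intron-centred ratio (the ratio minus the median of the tenth of genes with like intron length) is given where it matters.

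RNA of other cells was present in some members. Those with over 1% of UMIs from marker lists of other lineages, called mixed members below, numbered 0, 6, 7 and 6. They held 0, 5.07, 11.6 and 18.4% of member UMIs. In S/S TNF 4 of the 6 were led by erythroid genes, and in A/A TNF 3 of the 7 by neutrophil genes. Summed erythroid markers stood at 16.0, 1317, 29.3 and 19517 CPM in members and at 909, 6563, 4812 and 20681 CPM in B cells of the same libraries. Summed neutrophil markers stood at 153, 71.1, 1831 and 7416 CPM. Values without the mixed members are given beside list counts that they moved by over 1.5 times and beside some of the genes that they moved. The part of such RNA in the other values was not tested.

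The label was set against T cell markers. The rule fixed 2 of them, Cd3e, the CD3 epsilon chain, at 354, 486, 534 and 424 CPM, and Cd4, the coreceptor, at 220, 287, 229 and 194 CPM, so their levels describe the cells and are no check. Trac, the constant region of the T cell receptor alpha chain, was outside the rule and was detected in 55, 187, 108 and 48 members (94.8, 94.9, 95.6 and 98.0%), against 0 to 3.5% of B cells. Trdc, the delta chain, was detected in 0, 9, 1 and 0. Cd40lg, the helper ligand for CD40 on B cells and macrophages, was at 159, 142, 57.8 and 54.7 CPM in members, against 25.2, 13.9, 2.19 and 2.50 in CD8 T cells. It was higher in members than in CD8 or NK1.1-positive T cells in 4 of 4 libraries.

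Beside the other T cells of the same livers, members held more RNA of the recirculation and naive program and less of the cytotoxic one. The receptor Ccr7 was at 82.7, 25.3, 71.2 and 88.0 CPM in members, 46.0, 9.84, 61.9 and 81.2 in CD8 T cells and 0.324, 4.12, 1.38 and 2.31 in NK1.1-positive T cells. S1pr1, Klf2, Lef1, Tcf7, Il7r, Icos, Ctla4, Il6ra, Il6st and Foxp3 were also higher in members than in either other group in 4 of 4 libraries. Gzmb, a granzyme of killer cells, was at 13.6, 62.3, 21.8 and 31.3 CPM in members against 567, 558, 388 and 906 in CD8 T cells. Ccl5, Nkg7, Gzma, Klrd1, Prf1, Ifng and Cxcr6 were lower in members than in either other group in 4 of 4 libraries.

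Members were of unlike kinds, which a few genes marked. Cxcr6, a receptor that holds T cells in the liver sinusoids, was detected in 56.9, 64.5, 45.1 and 30.6% of members, or in 45.6, 52.4, 42.7 and 22.2% once each member was thinned to 5500 UMIs. The B cell background for Cxcr6 was 0 to 2.35% (median depth of B cells 8743, 6035.5, 8594 and 8509 UMIs). The members with and without a Cxcr6 UMI had like depth, with medians of 13386, 8285, 9964 and 9135 UMIs against 12299, 7662, 9689 and 9772. Ccr7 was at 10.5, 3.61, 1.84 and 0 CPM in members with Cxcr6 and at 185, 65.9, 129 and 128 CPM in those without. Effector genes stood the other way in every library. Ccl5 was at 599, 2162, 3235 and 768 CPM with Cxcr6 and at 173, 617, 789 and 461 without. Tbx21, the Th1 factor T-bet, was at 137, 117, 40.6 and 25.0 CPM with Cxcr6 and at 23.9, 50.7, 9.20 and 2.84 without.

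Foxp3 and several other regulatory T cell genes lay mostly in members without Cxcr6. Foxp3 was detected in 3, 12, 15 and 4 members, or 34 of 417, and in 5.26, 4.71, 9.71 and 6.67% of thinned members, against at most 0.5% of B cells. Cxcr6 was detected in 2 of these 34 members (5.88%) and in 224 of the other 383 (58.5%). Ctla4, an inhibitory receptor of regulatory cells, was detected in 28 of the 34 (82.4%) and in 20.4% of the other members. Il2ra, the IL-2 receptor alpha chain, was detected in 61.8% against 15.7%, though in A/A baseline in 0 of 3 Foxp3 members and 17 of 55 others, and Tnfrsf4, the costimulatory receptor OX40, in 73.5% against 79 of 383. Ikzf2 (Helios), a factor of thymic regulatory cells, was higher in Cxcr6-negative members in all 4 libraries, at 296, 794, 357 and 114 CPM against 58.9, 109, 46.1 and 43.7. Il2ra in A/A baseline stood the other way, at 118 CPM with Cxcr6 and 2.99 without.

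Zbtb16 and Il4, genes linked to innate-like T cells, were highest in A/A baseline. Zbtb16 (PLZF), the factor of innate-like T cells, was detected in 27.6% of its members (interval 16.7 to 40.9), against 3.55% in S/S baseline, 4.42% in A/A TNF and 0 of 49 members in S/S TNF, which allows a share of members with a UMI of up to 6.12% at 3 counts. Thinned shares were 26.3, 2.94, 1.94 and 0%, and B cell shares 1.47, 0.434, 0.5 and 0.709%. In A/A baseline Zbtb16 was at 349 CPM in members with Cxcr6 and at 5.97 CPM in those without. Of all Zbtb16 UMIs in that library, 41.1% came from 1 barcode. Il4, a cytokine of innate-like and Th2 cells, was at 83.9, 5.88, 11.7 and 9.77 CPM, with 69.1% of the A/A baseline UMIs in 1 barcode. Of 13 measured genes of an innate-like list, 2 were over 2-fold higher and 5 lower in S/S at baseline. The median was 0.06 against 0.09 for all genes, of which 8.79% were higher and 3.47% lower. The list summed to 1392, 1004, 753 and 950 CPM. Its genes Klra1, Klra9, Klrb1b and Trav11 were detected in S/S baseline but not in A/A baseline, which had fewer members.

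**Figure D2:**
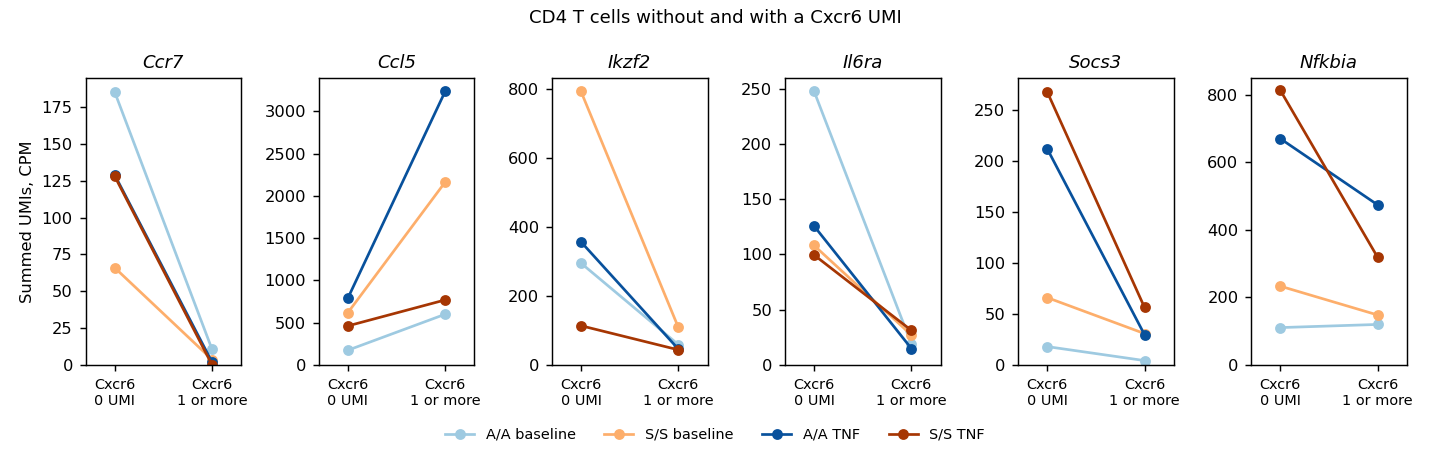
CPM of 6 genes in members without and with a Cxcr6 UMI, by library, with a separate linear axis from 0 in each panel. Ccr7, Ikzf2, Il6ra and Socs3 were lower, and Ccl5 higher, in the Cxcr6 members of all 4 libraries, while Nfkbia was lower in them in 3 of 4.

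TNF treatment was accompanied by a higher level of NF-kB target genes in both genotypes. The comparisons used log2 ratios of CPM with 1 CPM added, with an exact binomial interval of the counts in brackets, and a gene was called past 2-fold when the pair held at least 20 UMIs. In A/A 10.6% of 7943 measured genes were over 2-fold higher and 17.8% over 2-fold lower after TNF. In S/S 5.35% of 8296 were higher and 24.2% lower. With intron-centred ratios, the share of higher genes among those called moved from 37.4 to 50.6% for A/A and from 18.1 to 40.6% for S/S. Of the 39 measured genes of an NF-kB response list, 17 were over 2-fold higher and 1 lower in A/A, with a median log2 ratio of 0.95 against 0.025 for all genes. In S/S 15 were higher and 2 lower, or 14 and 5 without mixed members, with a median of 0.53 against -0.31. The intron-centred medians were 0.56 and 0.75. In the 42, 92, 60 and 17 members that also lacked 6 marker genes of other lineages, 7 of 29 listed genes were higher and 5 lower in S/S, with a median of -0.17.

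The promoters of 3 list genes that were over 2-fold higher after TNF in both genotypes are printed here because each holds the kappaB consensus, the DNA motif NF-kB binds. The sequences are RefSeq promoters of build GRCm38.p6, matched by symbol since the counts are on mm39, from 250 bases before to 50 after the start. Capitals mark matches to the consensus, searched on both strands, and the first run of capitals in Nfkb2 holds 2 overlapping matches. Nfkbia lies at chr12:55492598-55492897 on the minus strand, Nfkb2 at chr19:46304487-46304786 on the plus strand and Bcl3 at chr7:19822706-19823005 on the minus strand.
Nfkbia: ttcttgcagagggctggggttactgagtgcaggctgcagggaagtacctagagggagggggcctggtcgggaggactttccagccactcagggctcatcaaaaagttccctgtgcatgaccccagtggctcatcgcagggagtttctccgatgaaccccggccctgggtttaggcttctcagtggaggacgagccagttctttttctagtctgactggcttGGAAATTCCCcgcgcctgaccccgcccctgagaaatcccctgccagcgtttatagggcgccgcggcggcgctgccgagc
Nfkb2: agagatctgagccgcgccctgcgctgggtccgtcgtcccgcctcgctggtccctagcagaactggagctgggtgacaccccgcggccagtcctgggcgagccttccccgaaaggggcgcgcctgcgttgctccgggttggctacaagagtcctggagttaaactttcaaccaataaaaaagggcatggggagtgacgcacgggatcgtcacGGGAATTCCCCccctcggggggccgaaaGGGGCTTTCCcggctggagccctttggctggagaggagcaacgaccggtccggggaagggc
Bcl3: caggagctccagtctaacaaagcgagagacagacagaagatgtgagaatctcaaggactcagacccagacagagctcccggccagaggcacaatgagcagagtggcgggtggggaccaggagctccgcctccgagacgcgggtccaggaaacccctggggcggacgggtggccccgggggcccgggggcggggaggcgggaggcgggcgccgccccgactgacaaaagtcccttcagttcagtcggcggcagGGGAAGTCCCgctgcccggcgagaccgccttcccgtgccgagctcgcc
The consensus occurred in 5.14% of 27025 genes in the table, counting a gene when any of its promoters held it, and in 14 of the 33 measured list genes with a promoter (42.4%). By promoter the shares were 4.51% of 32851 and 37.2% of 43. Of the 9 list genes over 2-fold higher in both genotypes, 8 had a promoter and 5 of these a match. A match is a string of letters and does not show binding.

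The inhibitors and noncanonical subunits of NF-kB were the clearest of the list. Nfkbia stood at 116, 178, 581 and 659 CPM, a log2 ratio of 2.32 [2.01 to 2.64] for A/A and 1.89 [1.66 to 2.11] for S/S. Both TNF libraries lay above both baseline libraries. Nfkb2, which encodes p100 and p52, stood at 18.5, 14.7, 90.5 and 78.2 CPM, and its log2 ratios were 2.23 and 2.33. Relb, the partner of p52, stood at 16.0, 25.9, 113 and 88.0 CPM, and Bcl3, an IkB protein that binds p50 and p52 in the nucleus, at 13.6, 12.3, 93.8 and 72.3 CPM. For Bcl3 the log2 ratio was 2.70 for A/A and 2.46 for S/S. Gadd45b, a stress and survival gene, stood at 13.6, 23.5, 79.6 and 84.1 CPM. Each of these genes separated the TNF from the baseline libraries without overlap.

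Several other members of the pathway differed less. Nfkb1, which encodes p105 and p50, stood at 205, 183, 164 and 207 CPM, a log2 ratio of -0.32 for A/A and 0.18 for S/S. Tnfaip3 (A20), an inhibitor upstream of the kinase complex, stood at 92.5, 132, 124 and 143 CPM, and Birc3 at 71.6, 96.4, 97.2 and 89.9 CPM. These 3 genes stayed within 2-fold in both TNF comparisons. The receptor genes Tnfrsf1a (28.4, 20, 33.5 and 39.1 CPM) and Tnfrsf1b (38.2, 35.3, 46.9 and 70.4 CPM) were likewise within 2-fold. Traf1, a signalling adaptor, stood at 41.9, 85.2, 130 and 182 CPM, higher after TNF in both genotypes and 1.01 log2 units higher in S/S than A/A at baseline. Ltb, the membrane lymphotoxin chain, stood at 479, 581, 947 and 450 CPM and was highest in A/A TNF. For Icam1, at 24.7, 27.6, 157 and 117 CPM, 27.8% of the A/A TNF and 53.3% of the S/S TNF UMIs came from 1 barcode each, and without mixed members its A/A log2 ratio went from 2.62 to 1.49.

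**Figure D3:**
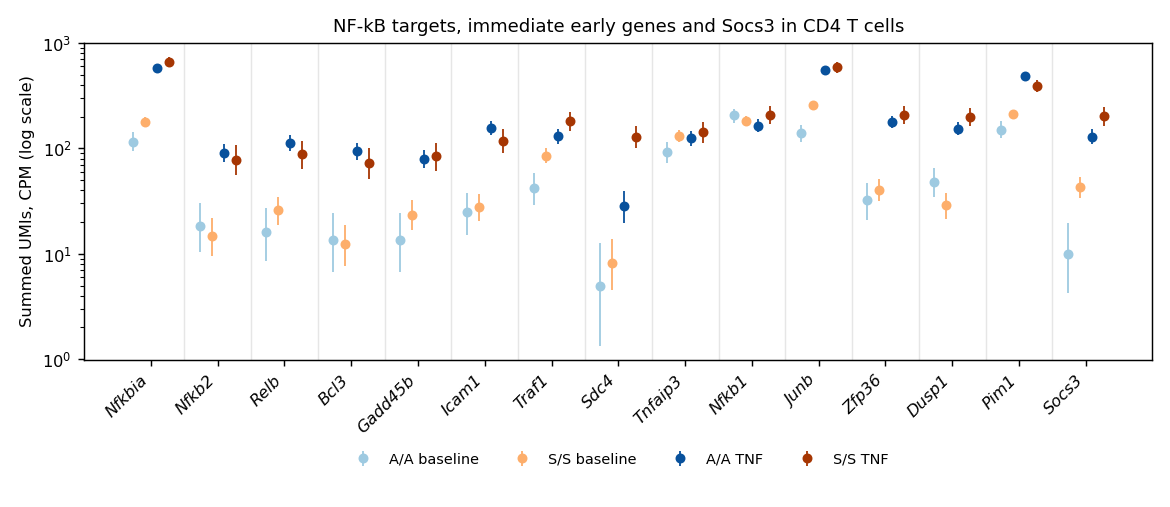
CPM of 15 TNF-associated genes in each library on a log axis, with bars for exact Poisson 95% intervals of the counts. Nfkbia, Nfkb2, Relb, Bcl3, Junb, Zfp36 and Socs3 lie higher in both TNF libraries than in both baseline libraries, whereas Tnfaip3 shows little separation (92.5 to 143 CPM).

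Immediate early genes, which cells transcribe within minutes of a stimulus, were also higher. In A/A 11 of 30 measured list genes were over 2-fold higher and 1 lower (median 0.84), and in S/S 12 of 29 were higher and 0 lower (median 0.88). Over all genes 10.6% were higher and 17.8% lower in A/A, and 5.35% and 24.2% in S/S. With intron centring 8 list genes were higher and 1 lower in A/A (median 0.44), and 13 and 0 in S/S (median 0.85). Junb, an AP-1 subunit, stood at 139, 258, 553 and 586 CPM, with log2 ratios of 1.98 and 1.18. Zfp36 (TTP), which destabilises cytokine mRNAs, stood at 32.1, 40.6, 178 and 207 CPM, and its A/A log2 ratio went from 2.43 to 1.62 without mixed members. Pim1, a kinase gene induced by cytokines, stood at 151, 210, 486 and 391 CPM. Fosb, another AP-1 subunit, differed between genotypes, at 9.87, 38.2, 51.9 and 19.5 CPM with log2 ratios of 2.28 for A/A and -0.93 for S/S. Tissue digestion also turns on such genes, and a list of isolation stress genes summed to 1347, 1633, 2046 and 2496 CPM. Its part in these values was not tested.

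The cytokine feedback inhibitor Socs3, which blocks signalling by the IL-6 receptor family, was also higher after TNF. It stood at 9.87, 42.9, 129 and 201 CPM, with log2 ratios of 3.58 [2.63 to 4.66] for A/A and 2.2 [1.76 to 2.65] for S/S. It was detected in 10.3, 24.4, 50.4 and 61.2% of members, in 1.75, 16.5, 37.9 and 51.1% of thinned members, and in 3.24, 2.46, 21.5 and 29.1% of B cells. Socs3 lay mostly in the members without Cxcr6, at 17.9, 65.9, 212 and 267 CPM against 4.20, 30.6, 29.5 and 56.2 with it. Il6ra, the IL-6 receptor alpha chain, followed the same split, at 248, 108, 126 and 99.6 CPM without Cxcr6 against 18.9, 27.0, 14.8 and 31.2 with it. Both genes were lower in the Cxcr6 members in 4 of 4 libraries, also without mixed members. Across T cells, Il6ra was at 17.8, 12.5, 28.4 and 36.2 CPM in CD8 T cells and at 3.56, 5.49, 3.84 and 8.09 CPM in NK1.1-positive T cells, below its level in members (114, 55.3, 75.4 and 78.2 CPM). Socs1 stood at 58.0, 107, 140 and 145 CPM. Of the 20 measured genes of the JAK-STAT list, 7 were over 2-fold higher and 1 lower in A/A, and 2 were higher (3 without mixed members) and 2 lower in S/S.

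A pair of genes central to helper function were lower after TNF in both genotypes. Tbx21 stood at 90.1, 94.1, 23.5 and 9.77 CPM, with log2 ratios of -1.90 [-2.55 to -1.27] for A/A and -3.14 [-4.53 to -1.97] for S/S. Its intron-centred ratios were -2.06 and -2.96. It was lower after TNF in members with Cxcr6 (137 against 40.6 CPM for A/A and 117 against 25.0 CPM for S/S). These rest on 65 and 22 UMIs for A/A and 130 and 4 for S/S. In members without Cxcr6 it was also lower, but on 8 and 6 UMIs for A/A and 30 and 1 for S/S. The A/A values without Cxcr6 are too few to show a difference. Shares of members with a Tbx21 UMI were 44.8, 43.7, 21.2 and 10.2%, or 29.8, 37.1, 12.6 and 8.89% after thinning, and B cell shares 1.18 to 4.5%. Cd40lg, chosen after its values were seen, had log2 ratios of -1.45 [-1.88 to -1.02] and -1.36 [-1.97 to -0.80], with intron-centred ratios of -1.73 and -1.29. Stat4, which relays IL-12 signals, stood at 279, 290, 86.3 and 72.3 CPM, but its log2 ratios of -1.68 and -1.99 came to 0.00 and -0.30 after intron centring.

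The Th1 list as a whole was lower after TNF in S/S, whereas in A/A its genes moved both ways. Its summed level was 1575, 3411, 2911 and 1161 CPM, so in A/A the sum was higher after TNF. In A/A 4 of 14 genes were over 2-fold higher and 4 lower after TNF, with a median of 0.28, and in S/S 0 were higher and 10 lower, with a median of -1.78. The intron-centred medians were 0.03 in A/A and -1.50 in S/S. Il18r1, a subunit of the IL-18 receptor, stood at 142, 329, 159 and 91.9 CPM, a log2 ratio of 0.16 for A/A and -1.83 for S/S. Ifng, the Th1 cytokine, was low throughout, at 30.8, 42.9, 24.3 and 11.7 CPM.

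Effector and naive genes had medians of opposite sign in the genotypes. In A/A 10 of 27 effector and tissue memory genes were over 2-fold higher after TNF and 1 lower (median 0.66). In S/S 1 of 26 was higher (0 without mixed members) and 10 lower (median -0.66). With intron centring 10 were higher and 2 lower in A/A (median 0.69), and 3 and 8 in S/S (median -0.35). Over all genes 10.6% were higher and 17.8% lower in A/A (median 0.025), and 5.35% and 24.2% in S/S (median -0.31). Ccl5 stood at 423, 1625, 1900 and 557 CPM, with log2 ratios of 2.16 [2.00 to 2.33] for A/A and -1.54 [-1.72 to -1.37] for S/S. In B cells, as a background, Ccl5 was at 10.7, 133, 106 and 9.94 CPM and in 9.41, 35.7, 16.5 and 10.6% of cells, with the same libraries high. It was detected in 51.7, 75.1, 56.6 and 36.7% of members, or 38.6, 66.5, 53.4 and 37.8% after thinning. Nkg7, a cytotoxic granule protein, stood at 291, 576, 459 and 143 CPM, with log2 ratios of 0.65 and -2.01. For both genes S/S baseline and A/A TNF were the high libraries. Of 16 naive and recirculating genes, 0 were over 2-fold higher and 5 lower in A/A (median -0.32), and 5 were higher and 3 lower in S/S (median 0.51). The intron-centred medians of the naive list were -0.39 and 0.80. Members with a recirculation gene and no Cxcr6 made up 37.9, 22.8, 42.5 and 57.1% of members, or 43.9, 27.6, 38.8 and 57.8% after thinning, so that the direction within A/A turned with depth and that within S/S did not. Members with Cxcr6 and no recirculation gene made up 32.8, 34.5, 27.4 and 18.4%, or 33.3, 35.3, 33.0 and 13.3% after thinning. In CD8 T cells of the same libraries, the median TNF log2 ratio of the effector list was 0.13 for A/A and -0.23 for S/S, and in NK1.1-positive T cells -0.07 and -0.60.

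At baseline the S/S members held less naive and more effector RNA than the A/A members. The background was 8.79% of 8637 genes over 2-fold higher in S/S and 3.47% over 2-fold lower, and the median of all genes was 0.092. Of 16 naive and recirculating genes 0 were higher and 9 lower in S/S, with a median of -1.15. Without the members that held Foxp3, Zbtb16 or Trdc, 10 were lower, with a median of -1.34. The median of the same list was -0.87 in CD8 T cells and 0.19 in NK1.1-positive T cells. Satb1, a chromatin organiser of naive and developing T cells, stood at 671, 87.6, 271 and 192 CPM, a log2 ratio of -2.92 [-3.19 to -2.66] for S/S against A/A at baseline. The gap was seen in members with Cxcr6 (713 against 91.9 CPM) and without (612 against 79.4 CPM). Ccr7 had a baseline log2 ratio of -1.67, and S/S baseline was the low library of the 4. Lef1 stood at 538, 206, 162 and 82.1 CPM and Dapl1, a naive T cell gene, at 116, 9.41, 36.9 and 15.6 CPM, and for these A/A baseline was the high library. Il7r, the IL-7 receptor chain, kept a narrower range of 398 to 780 CPM.

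Effector genes differed the other way. Of 26 measured effector and tissue memory genes, 13 were over 2-fold higher in S/S at baseline and 0 lower, with a median of 0.99. The same median was 0.72 in CD8 T cells and 0.46 in NK1.1-positive T cells. Ccl5 had a log2 ratio of 1.94 [1.78 to 2.10]. Gzmk, a granzyme of memory cells, stood at 4.93, 61.1, 10.9 and 11.7 CPM, a log2 ratio of 3.39 [2.14 to 4.76], and was detected in 5.17, 26.9, 7.96 and 6.12% of members and in 1.75, 18.2, 5.83 and 4.44% after thinning, with B cells at 0.289% or less. S100a4, a calcium-binding protein of memory cells, stood at 194, 673, 546 and 410 CPM, and Itgb1, the beta 1 integrin, at 379, 976, 421 and 528 CPM. Cxcr6 itself, at 216, 246, 142 and 95.8 CPM, was within 2-fold between the genotypes. Of 16 regulatory T cell genes 11 were higher and 1 lower, with a median of 1.16. Ctla4 stood at 50.6, 172, 64.5 and 190 CPM and Ikzf2 at 157, 347, 216 and 91.9 CPM, whereas Il2ra was lower in S/S baseline, at 70.3, 29.4, 69.5 and 45 CPM. Without the Foxp3, Zbtb16 and Trdc members, the Il2ra ratio turned to 1.66. The Foxp3 share of members was 5.17% for A/A and 6.09% for S/S at baseline. Between these libraries Rn18s-rs5 held 17.4 and 6.04% of member UMIs and ribosomal protein genes 16.4 and 21.6%. The part of these in the ratios was not tested.

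**Figure D4:**
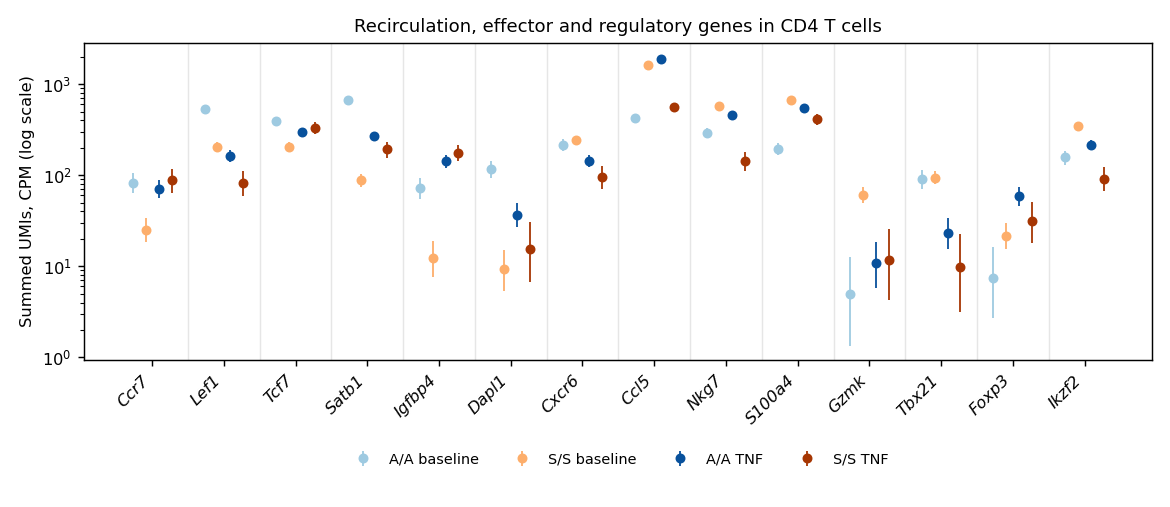
CPM of 14 naive, effector and regulatory T cell genes in each library on a log axis, with bars for exact Poisson 95% intervals of the counts. S/S baseline has the lowest Ccr7 and the highest Gzmk of the 4 libraries, and Ccl5 is high in S/S baseline (1625 CPM) and A/A TNF (1900 CPM).

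Interferon-stimulated genes belonged to the same baseline difference. Of 40 measured genes of a type I interferon list, 19 were over 2-fold higher in S/S at baseline and 0 lower, with a median of 0.81. The median of the list was 0.35 in CD8 T cells, -0.11 in NK1.1-positive T cells and 0.05 in B cells. Isg15, a ubiquitin-like antiviral protein, stood at 18.5, 160, 71.2 and 289 CPM, a baseline log2 ratio of 3.04 [2.33 to 3.85]. In S/S TNF 78.4% of its UMIs came from 1 barcode, and without mixed members it stood there at 47.9 CPM, below the 157 CPM of S/S baseline. Ifit3, which binds viral RNA complexes, stood at 7.40, 63.5, 17.6 and 15.6 CPM, a baseline log2 ratio of 2.94, and Ifi27l2a at 606, 1777, 888 and 1099 CPM. Rsad2 (viperin) had 0 UMIs in A/A baseline and stood at 44.7 CPM in S/S baseline, at least 12.1-fold higher. Its 354 CPM in S/S TNF rested on 1 barcode, which held 79.6% of the UMIs. After TNF 9 of 36 genes of this list were higher and 3 lower in A/A (median 0.32), and 1 of 40 was higher (0 without mixed members) and 17 lower in S/S (median -0.94).

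Genes that interferon gamma induces were higher after TNF mainly in A/A, and the difference between the genotypes was not tested. In A/A 16 of 28 listed genes were over 2-fold higher after TNF and 1 lower, with a median of 1.07 and an intron-centred median of 0.67. In S/S 1 was higher and 4 lower, with a median of -0.29, close to the -0.31 of all genes, and of -0.12 with intron centring. Gbp5, a guanylate-binding protein, stood at 14.8, 35.3, 83.8 and 41.0 CPM. Irf1, a transcription factor of the pathway, stood at 80.2, 114, 198 and 135 CPM. B2m, the light chain of MHC class I, stood at 1321, 1803, 2965 and 2506 CPM, with log2 ratios of 1.17 and 0.47. Psmb9, an immunoproteasome subunit, stood at 120, 309, 259 and 188 CPM, with log2 ratios of 1.11 and -0.71. In CD8 T cells the list's median TNF log2 ratios were 0.54 for A/A and 0.39 for S/S, and in NK1.1-positive T cells 0.79 and 0.50. Cxcl10, a ligand of CXCR3, stood at 21, 63.5, 96.3 and 25.4 CPM, with 70.6% of the A/A baseline UMIs in 1 barcode and an A/A log2 ratio that went from 2.15 to 0.82 without mixed members.

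After TNF the genotypes lay closer for the naive genes. The background was 3.59% of 7159 genes over 2-fold higher in S/S and 8.74% over 2-fold lower, with a median of -0.12 over all genes. Of 16 naive and recirculating genes 0 were higher and 1 lower in S/S (0 without mixed members), with a median of 0.08. Ccr7 had a log2 ratio of 0.30. Of 27 effector genes 3 were higher (1 without mixed members) and 4 lower (median -0.41), and Ccl5 had a log2 ratio of -1.77 [-1.95 to -1.59]. Of 14 Th1 genes 0 were higher and 6 lower (median -0.91), and of 28 interferon gamma genes 0 were higher and 5 lower, or 3 without mixed members (median -0.53). Of 39 NF-kB response genes 4 were higher and 7 lower (median -0.21). Ctla4 had a log2 ratio of 1.54, which went to 0.28 without mixed members. These ratios rest on 49 members in S/S TNF, of which 43 were not mixed.

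**Figure D5:**
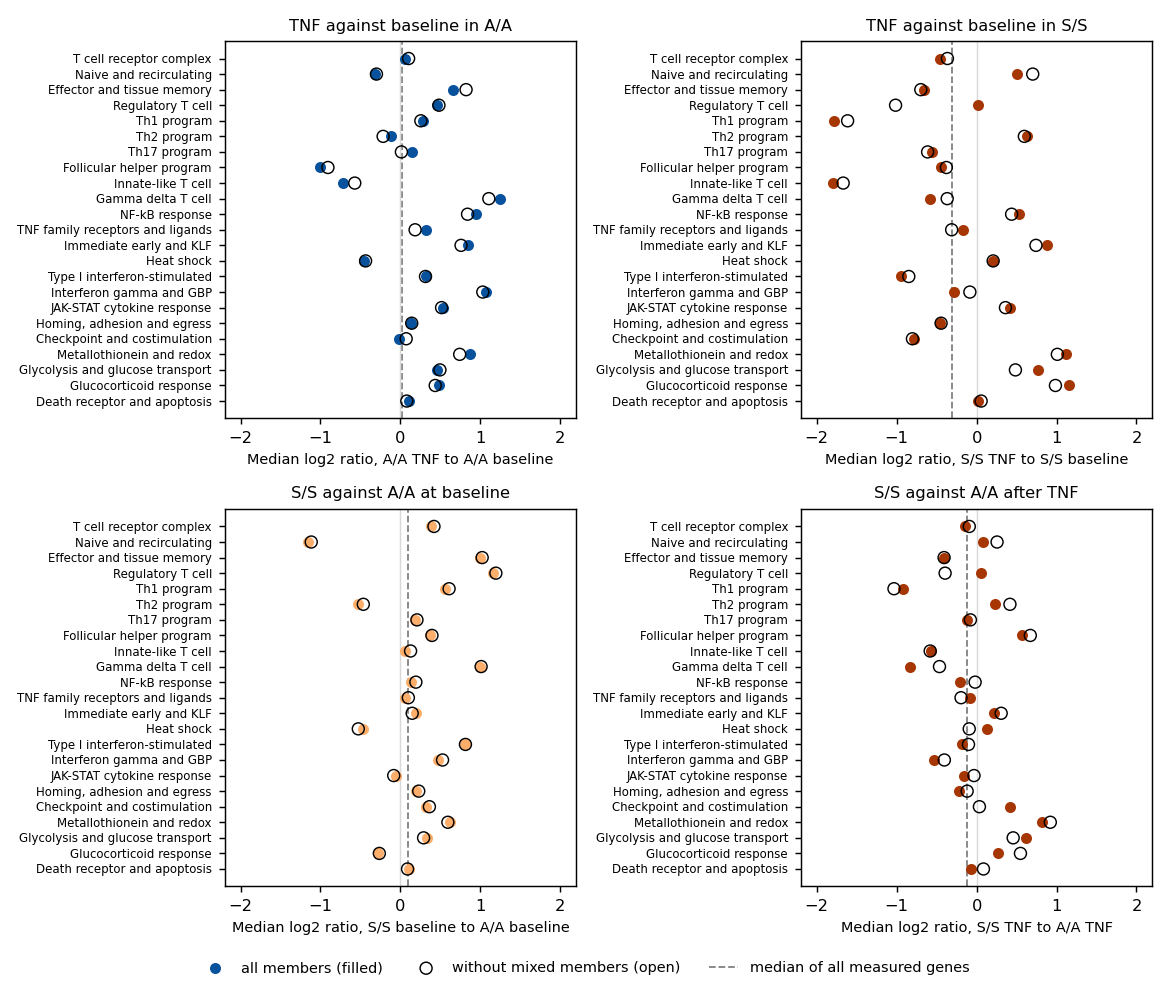
Median log2 ratio of each gene list in the 4 comparisons, with filled symbols for all members, open symbols without mixed members and a dashed line at the median of all genes. The NF-kB and immediate early lists lie above the line in both TNF comparisons, and the effector, Th1 and interferon lists lie on opposite sides of 0 in A/A and S/S.

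Metal-binding and redox genes were higher after TNF in both genotypes. Of 17 measured genes 8 were over 2-fold higher and 0 lower in A/A, and of 19 genes 12 were higher and 0 lower in S/S, or 5 and 9 without mixed members. Over all genes 10.6% were higher and 17.8% lower in A/A, and 5.35% and 24.2% in S/S. The list summed to 2286, 4363, 5637 and 12389 CPM in members. In B cells of the same libraries it summed to much the same, at 2514, 4752, 6813 and 12824 CPM. Mt1, a metallothionein, stood at 1.23, 16.5, 398 and 416 CPM and Mt2 at 0, 2.35, 240 and 178 CPM, or at 1.23, 16.7, 134 and 434 for Mt1 and 0, 2.48, 39.8 and 194 for Mt2 without mixed members. Mt1 was detected in 48.7 and 63.3% of members after TNF, below its share of 62.5 and 69.5% in B cells, so the Mt1 share is not read as expression by these cells. Whether members or B cells transcribed Mt1 or the other listed genes was not tested. Hmox1, which breaks down heme, stood at 4.93, 68.8, 51.1 and 942 CPM (573 in S/S TNF without mixed members), with 48.1% of the S/S TNF UMIs in 1 barcode. Of a glucocorticoid-responsive list, 4 of 15 genes were higher (2 without mixed members) and 3 lower in A/A, and 9 of 15 were higher and 2 lower in S/S. Tsc22d3 (GILZ) stood at 91.3, 73.5, 162 and 190 CPM and Ddit4, an mTOR inhibitor, at 53.0, 66.4, 106 and 151 CPM. Among the 8 highest genes after TNF in S/S was Gadd45g, a stress gene, at 2.47, 9.41, 33.5 and 78.2 CPM. Of the genes with at least 50 UMIs in each pair and no lower in members than in other barcodes of the higher library, those highest in both TNF comparisons by the smaller ratio included Serpina3f, a serine protease inhibitor, at 8.64, 24.7, 153 and 64.5 CPM. The cold-inducible RNA-binding protein genes Cirbp (17.3, 81.7, 79.6 and 176 CPM) and Rbm3 (138, 261, 401 and 639 CPM) were among them as well.

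The highest of the ranked genes often rested on 1 barcode, and several of the lowest had long introns. The 8 highest genes after TNF in A/A were hepatocyte genes such as Alb, Fgb and Mup20, with most UMIs in 1 barcode each. The lowest was Il31ra, with 1350 UMIs in A/A baseline and 0 in A/A TNF. Next came Cmss1, Gphn and Camk1d, with log2 ratios of -10.3, -8.17 and -7.45. After intron centring these were still -8.62, -6.49 and -5.77. In S/S the highest were Ramp3, a receptor activity-modifying protein, at 4.93, 6.47, 12.6 and 104 CPM, and Igfbp4, a naive T cell gene, at 71.6, 12.3, 142 and 176 CPM. For Igfbp4, 66.7% of the S/S baseline UMIs and 35.6% of the S/S TNF UMIs were in 1 barcode each. For Ramp3, 1 barcode held 45.3% of the S/S TNF UMIs. Lower in S/S than in A/A both at baseline and after TNF was Ly6c1, a surface antigen, at 37.0, 5.29, 71.2 and 9.77 CPM, with log2 ratios of -2.60 and -2.74. Ifngr1, an interferon gamma receptor chain, was higher in S/S both times, at 290, 709, 296 and 602 CPM.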

How the data were processed

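Each of the 4 libraries was deposited as a 10x matrix of raw UMI counts by the authors, from the Chromium 3' v3.1 kit per the labels' protocols. Per the file headers the authors used Cell Ranger 7.1.0 for baseline and 6.1.2 for TNF, and the genome build was mm39 per the submitters' processing notes. Whether introns were counted is not given in the sources used here. Members were found by fixed UMI limits, with no clustering and no doublet caller. For each library the UMIs of its members were added up and expressed as CPM. Ratios added 1 CPM, needed 20 UMIs in the pair and carry 95% exact binomial intervals for counting error alone. Shares have exact Clopper-Pearson intervals and were repeated after thinning each member to 5500 UMIs, which left 57, 170, 103 and 45 members. Setting genes with 0 UMIs in 1 library to a bound of 3 counts per library moved the median of the innate-like list after TNF in S/S and left the other list medians printed as they were. With 1 library a group no test was made. The script for ratios was tested on simulated data. CD8 T cells followed the same rule with a CD8 gene and no Cd4, NK1.1-positive T cells held at least 3 CD3 UMIs and 1 of Klrb1c, and B cells held at least 2 UMIs of Cd79a, 1 of Ms4a1 and no CD3.

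Members, gene lists and the rule for named genes were chosen with earlier results of these data known. That rule took the defining genes of each list with up to 6 of its largest ratios, the 8 highest and 8 lowest genes in each comparison among those with at least 50 UMIs, at least 20 CPM and no lower than in other barcodes, 10 each way over both TNF or both genotype comparisons, and 5 each way for the difference between genotypes in TNF ratio. Genes named for a level in the comparison with CD8 and NK1.1-positive T cells, Cd40lg and Il6ra among them, were chosen after their values were seen. Alternatives changed the limits of the rule, the scaling (TMM from edgeR 4.0.16), the pseudocount, the filter, depth and intron length. Leaving out mixed members was added after seeing the data. Python 3.11.15, NumPy 2.4.6, pandas 2.3.3 and SciPy 1.17.1 were used.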

Additional observations from a re-analysis of the deposited data

Results flagged for a closer look

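Flagged were 5 gene lists and 5 genes whose TNF log2 ratios had opposite signs in A/A and S/S and passed set limits. Lists needed enough measured genes and medians over 0.25 in size in both genotypes. Genes, among those checked, needed at least 50 UMIs in each pair and ratios past 2-fold in both genotypes. Other lists and genes had opposite signs without passing these limits, Fosb, Nkg7, Psmb9 and Il18r1 among them. Each genotype is 1 library at each time, so the difference between the genotypes was not tested, and it cannot be told apart from differences between the pooled mice or their sorts. The median over all genes was 0.025 in A/A and -0.31 in S/S. The median TNF log2 ratio in S/S minus that in A/A was 0.82 for naive and recirculating genes (0.51 and -0.32) and -1.33 for effector and tissue memory genes (-0.66 and 0.66). It was -2.07 for the Th1 program (-1.78 and 0.28), -1.26 for type I interferon-stimulated genes (-0.94 and 0.32) and -1.35 for the interferon gamma and GBP list (-0.29 and 1.07). The S/S median of the interferon gamma list was close to that of all genes. With intron centring the Th1 median was 0.03 in A/A and -1.50 in S/S.

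Among single genes, the difference was -3.71 for Ccl5 (-1.54 and 2.16), -3.43 for Cxcl10 (-1.29 and 2.15) and -2.62 for Rtp4, an interferon-stimulated gene (-1.0 and 1.61). It was 2.43 for Satb1 (1.12 and -1.31). For Gzma, a granzyme, it was -6.56 (-2.57 and 3.98), at 4.93, 28.2, 93.0 and 3.91 CPM, on 4 and 2 UMIs in A/A baseline and S/S TNF and with 60.4% of the A/A TNF UMIs in 1 barcode.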

How the results depend on the processing

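Members made up 1.48, 3.00, 1.02 and 0.507% of kept barcodes when at least 2 Cd4 UMIs were needed. With 6 marker genes of other lineages also at 0, the shares were 1.48, 2.11, 0.930 and 0.308%. When the rule was applied to barcodes thinned to 5500 UMIs, members were 4.13, 7.19, 2.58 and 1.3%. Those shares are of kept barcodes with at least 5500 UMIs and not of all kept barcodes. When 500 genes were needed and 10% mitochondrial UMIs allowed, the share was 5.59% in S/S baseline and 1.21% in S/S TNF. The order of the 4 libraries was the same in these settings. Counts of genes over 2-fold depended on the filter and pseudocount. With 10 CPM added, 433 were higher after TNF in A/A, 274 higher and 1263 lower in S/S, 262 higher and 111 lower at baseline in S/S relative to A/A, and 161 higher and 237 lower after TNF. With at least 50 UMIs the counts were 413 and 918, 217 and 1250, 352 and 136, and 121 and 192. With 1 UMI enough they were 2557 and 4143, 1925 and 4949, 2818 and 2107, and 1718 and 2795. With the 6 marker genes at 0, 417 and 204 were higher after TNF in A/A and S/S, and 454 were higher in S/S at baseline. After thinning, 292 were higher after TNF in S/S and 361 lower in S/S against A/A after TNF, and without mixed members the latter was 417. Intron-centred ratios gave 688 lower in A/A, and 748 higher and 1094 lower in S/S. TMM scaling, totals without Rn18s-rs5, mitochondrial and ribosomal protein genes, and leaving out Foxp3, Zbtb16 and Trdc members kept all 8 counts within 1.5 times.

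Among the genes checked under each alternative, ratios past 2-fold turned in sign in 12 cases. With the 6 marker genes at 0 these were Alb (2.88) and Ctla4 (-1.61) in S/S against A/A after TNF, Serpina3f (0.63) in the same comparison, Cxcl10 (-0.38) for TNF in A/A and Tnfrsf4 (-0.56) for TNF in S/S. Without Foxp3, Zbtb16 and Trdc members they were Alb (1.60) and Ikzf2 (0.24) after TNF and Il2ra (1.66) at baseline. Without mixed members they were Alb (1.98) and Isg15 (-0.44) after TNF and Rsad2 (-2.29) for TNF in S/S. Intron centring brought Stat4 to 0.0014 for TNF in A/A. Fgb, named above but not among the genes checked, also turned, from -2.50 to 1.41 after TNF without mixed members. The cause was not tested where the alternative does not itself show it. Of the other single-gene values, 358 lay outside the interval and 3135 lay within it.

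The depth limits rest on S/S TNF, with 49 members and 511599 UMIs, where Tbx21 at 9.77 CPM stood on 5 UMIs. No paired analysis was possible because the labels give no replicate numbers and each group is 1 library. For the same reason no library was left out of a group.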

Other observations

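The genes that differed most between the genotypes in their TNF log2 ratio were of several kinds, over 7511 genes with a median difference of -0.26. The highest were Igfbp4 (2.75), the integrin gene Itgb3 (2.68), Satb1 (2.43), the deacetylase gene Hdac8 (2.08) and Ccr7 (1.97). Itgb3 stood at 77.7, 25.9, 21.8 and 48.9 CPM. The lowest were Gmds (-3.69), Cep95 (-3.64), Chn2 (-3.41), Fosb (-3.22) and Plcb4 (-3.03). Gmds, Cep95 and Chn2 had 0 UMIs in S/S TNF, so their values depend on the pseudocount and are no bound.

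The checkpoint and innate-like lists had more genes over 2-fold lower than higher after TNF in both genotypes, as did all measured genes. Over all genes 10.6% were higher and 17.8% lower in A/A, and 5.35% and 24.2% in S/S. Of 18 checkpoint genes 2 were over 2-fold higher and 7 lower in S/S (median -0.79), or 1 and 8 without mixed members, and of 16 in A/A 2 were higher and 5 lower (median -0.01). Of 12 innate-like T cell genes 1 was higher and 5 lower in A/A (median -0.72), and 2 were higher and 7 lower in S/S, with a median of -1.80, or -1.40 with the genes that had 0 UMIs in 1 library set to their bound of 3 counts. Without mixed members 1 was higher and 7 lower in S/S. With intron centring 1 checkpoint gene was higher and 4 lower in A/A, and 2 and 5 in S/S. For the innate-like list these counts were 1 and 7 in A/A and 2 and 7 in S/S. Glycolysis genes were higher after TNF in S/S for 8 of 19, or 3 without mixed members, and in A/A for 0 of 18, with 2 lower, or 1 without mixed members. Heat shock genes were higher for 5 of 14 in S/S (4, with 1 lower, without mixed members) and lower for 1 of 12 in A/A.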
